A study of Mus musculus with 28 samples.

Results

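The immunoglobulin (Ig) loci of the mouse were examined in maps of 5-hydroxymethylcytosine (5hmC) and 5-methylcytosine (5mC). They were defined by position on the mm9 build as 3 windows. The heavy chain locus Igh was chromosome 12 from 114400001 to 117300000, the kappa light chain locus Igk was chromosome 6 from 67500001 to 70700000, and the lambda light chain locus Igl was chromosome 16 from 19020001 to 19270000. Every deposited peak that overlapped a window was taken, and overlapping peaks of the same mark were merged into regions, whatever library they came from. This gave 137 Ig regions from 427 peaks, of 424539 regions in the whole genome. There were 52 Ig regions of 5hmC of 206417 in all, and 85 Ig regions of 5mC of 218122 in all.

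The series concerns mice with combined loss of Tet1 and Tet2, and holds 28 mouse samples, of which 11 are libraries of DNA marks. 5hmC was pulled down after a chemical tag was attached to it (hMe-Seal) in 2 DKO, 2 Tet2KO and 2 WT libraries, and 5mC was captured by immunoprecipitation of methylated DNA (MeDIP-seq) in 2 DKO, 1 Tet2KO and 2 WT libraries. DKO mice lacked both Tet1 and Tet2, Tet2KO mice lacked Tet2, and WT mice were wild type. All 11 were made from bone marrow, from a cell fraction labelled LK, of C57BL/6 mice 6 to 10 weeks old. The labels give neither the design of the knockout alleles nor whether libraries of 1 genotype came from separate mice, so the p-values below measure the spread between these libraries only. The cell label could not be checked against marker genes, because a list of DNA mark peaks holds no expression.

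The Igh and Igk loci are each built from many variable (V) gene segments in a row, followed by joining (J) segments and constant (C) genes. The heavy chain locus also has diversity (D) segments between its V and J segments, and the shorter Igl holds few V segments. Developing B cells cut and join 1 V and 1 J segment, and in Igh also 1 D segment, which takes the DNA between them out or turns it round. 5mC is the methyl mark laid on cytosine by DNA methyltransferases. The Tet enzymes oxidise it to 5hmC, an intermediate in the removal of methylation. The maps describe a population of cells, in which fewer cells with a mark and less of the mark per cell cannot be told apart.

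The order of the genes was read from the RefSeq annotation of another build (GRCm38.p6), so it gives neighbours and no positions here. Along increasing coordinates, Igh begins with its 8 C genes, of which Igha, the constant gene of IgA, is the first. These are followed by 4 J segments, 10 D segments and 10 D pseudogenes, and then 120 V segments and 63 V pseudogenes. Igk runs the other way round, with 102 V segments and 60 V pseudogenes before its 5 J segments and its 1 C gene, Igkc. Igl holds 3 V, 3 J and 3 C entries plus pseudogenes. On this order, the first 350 kb of the Igh window were treated as its constant end and the other 2.55 Mb as its variable part, and the last 50 kb of the Igk window as its constant end and the other 3.15 Mb as its variable part. The position in mm9 at which a window passes from its neighbours to its Ig genes was not determined, and no region is assigned to a single gene. Neighbours include Tmem121 and Zfp386 for Igh, Rpia for Igk, and Hira and Olfr164 for Igl.

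Facts of the whole libraries were not the same in each genotype. The 5hmC libraries held 128471 to 143960 peaks, which covered 3.73 to 4.23% of the chromosomes, with median widths of 598 to 728 bp. The covered share was 4.17 and 4.01% in DKO libraries, 3.84 and 3.73% in Tet2KO libraries, and 4.23 and 4.13% in WT libraries. Median widths were 705 and 623 bp in DKO libraries, 633 and 598 bp in Tet2KO libraries, and 728 and 681 bp in WT libraries. The 5mC libraries held 120243 to 147934 peaks, both ends being DKO libraries. These covered 1.65 to 1.71%, with median widths of 275 to 331 bp. Covered shares compared between genotypes below are not divided by these values unless stated. Read depth is unknown, and only its product, the peak lists, could be compared. A stretch without a peak may still hold a mark, below what the peak caller reported, so a missing peak does not show a missing mark. Because the marks were measured by different assays, the covered share of a window was divided by the covered share of the chromosomes in the same library before marks were compared. A relative coverage of 1 means as much peak sequence as the average of the chromosomes.

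Peaks of both marks were sparse over the Ig loci. Most of them lay in the constant ends and near the far end of the Igh window. 5mC had further peaks scattered over the variable parts of both Igh and Igk, where 5hmC had few or none. Igh carried 46 regions of 5hmC and 62 of 5mC, Igk carried 6 of 5hmC and 23 of 5mC, and Igl carried none of either mark in any of the 11 libraries. The number of Ig peaks in a 5hmC library was 29 and 29 in DKO, 27 and 35 in Tet2KO, and 28 and 26 in WT. In a 5mC library it was 57 and 43 in DKO, 59 in Tet2KO, and 48 and 46 in WT. For 5hmC the Tet2KO libraries had counts on both sides of the DKO libraries, and the DKO counts lay just above the WT counts. For 5mC the single Tet2KO library had the most.

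**Figure D1:**
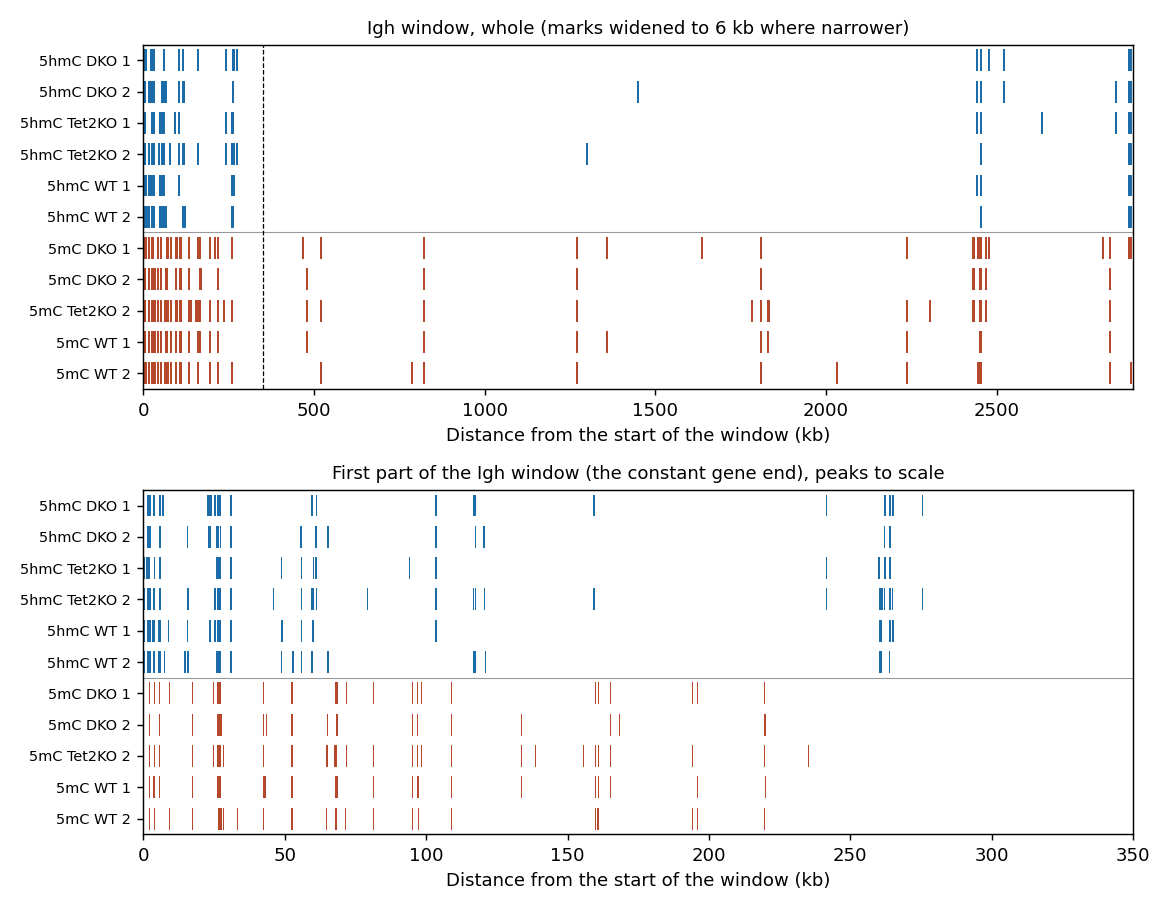
Peaks of each library along the Igh window, by distance from its start in kb; the upper panel shows all 2900 kb with marks widened to 6 kb where narrower and the dashed line at 350 kb, and the lower panel shows the constant end to scale. Blue bars are 5hmC peaks and red bars 5mC peaks; both crowd into the start of the window and recur near its far end.

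Within the Igh window, peaks of both marks were concentrated in the constant end. It held 33 of the 46 Igh regions of 5hmC and 37 of the 62 of 5mC, although it made up 350 kb of 2900 kb. 5hmC peaks covered 4.03 and 2.99% of it in DKO libraries, 2.96 and 4.49% in Tet2KO libraries, and 3.92 and 3.96% in WT libraries. The genotypes overlapped, and each knockout had 1 library above and 1 below both WT libraries. 5mC peaks covered 2.69 and 2.27% in DKO libraries, 3.29% in the Tet2KO library, and 2.83 and 2.59% in WT libraries. The densest 100 kb of either mark was the first of the window, with a mean coverage of 9.02% for 5hmC and 7.06% for 5mC. For 5mC this was more than in 95.8% of the 26400 bins of 100 kb in the genome, and for 5hmC more than in 84.2% of them. The next bins of 100 kb averaged 1.54 and 2.47% for 5hmC and 1.92 and 0.591% for 5mC. The density of the constant end thus lay mostly in the first 100 kb, which may hold neighbouring genes. Whether Tmem121 lies before the window or inside it was not determined. The 500 kb before the window, on the Tmem121 side by gene order, were denser than that first bin. 5hmC peaks covered 24.0 to 28.8% of them with a median of 26.4%, and 5mC peaks 9.42 to 9.85% with a median of 9.55%.

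A site 25.8 kb into the Igh window carried the widest region of each mark that was present in every library. Whether this site lies in Ig genes or among their neighbours was not determined. The 5hmC region lay at chromosome 12 from 114425800 to 114427603, 1804 bp wide. The authors' peak score, which rises as the peak caller's p-value falls, was 487 and 550 in DKO libraries, 510 and 603 in Tet2KO libraries, and 612 and 633 in WT libraries. The site was therefore scored in every genotype, and scores are not compared between lists. It overlapped the 5mC region, from 114426169 to 114427710, 1542 bp wide. That region had a score of 3100 in all 5 5mC lists. Higher scores were held by 21 and 12 peaks of the DKO lists, 8 of the Tet2KO list, and 13 and 21 of the WT lists. The value 3100 itself was shared by 173 and 114 peaks of the DKO lists, 145 of the Tet2KO list, and 133 and 179 of the WT lists. What this repeated value stands for was not determined, so the region was not ranked, neither among these peaks nor against those with higher scores.

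Other regions of the constant end that were present in every library were smaller. 5hmC marked 114401129 to 114402693 (1565 bp) and 114405124 to 114406302 (1179 bp), near the window's start, where the nearest 5hmC region outside lay 3.98 kb away. The score of the 1565 bp region was 458 and 410 in DKO lists, 542 and 560 in Tet2KO lists, and 438 and 405 in WT lists, and in 1 Tet2KO list it was above that of the 1804 bp region. Farther in, 5hmC marked 114663508 to 114664347 (840 bp), with no 5mC peak over it. That was close to the last 5hmC region of the constant end, which finished at 114675687. 5mC marked 114467496 to 114468818 (1323 bp) and 114619576 to 114620056 (481 bp) in every library, and no 5hmC peak overlapped either. The score of the 481 bp region was 852 and 819 in DKO lists, 952 in the Tet2KO list, and 719 and 612 in WT lists.

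The variable part of Igh had no 5hmC peak over long stretches. After the constant end came 1.02 Mb without any 5hmC peak in any library, from 114675688 to 115700271, and a second gap of 0.994 Mb followed from 115848478 to 116842595. Of the 206397 gaps between 5hmC regions in the genome, these were the 321st and the 332nd longest, and the median gap was 1.71 kb. The longest 5mC gap in Igh was shorter, 0.448 Mb, from 115223639 to 115671363. Among the 218101 gaps of the 5mC map, whose median was 3.45 kb, it ranked higher than the 5hmC gaps did in theirs, as the 181st. In total the variable part held 13 regions of 5hmC and 25 of 5mC, and 4 and 5 of these had a peak in every library of their mark.

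Both marks returned near the far V end of Igh. A 5hmC region present in every library lay at 116853077 to 116854058 (982 bp). It met a 5mC region, also present in every library, at 116852261 to 116853081 (821 bp), so that the marks lay side by side with an edge in common. Its 5hmC score was 291 and 426 in DKO lists, 233 and 65.7 in Tet2KO lists, and 104 and 130 in WT lists. Its 5mC score was 1150 and 733 in DKO lists, 332 in the Tet2KO list, and 756 and 854 in WT lists. At 117231556 to 117231975, 5mC alone was present in every library, with scores of 1199 and 1221 in DKO, 916 in Tet2KO, and 1103 and 1406 in WT. The far end of the window carried 3 further 5hmC regions present in every library, of which the first began at 117286556. These lie on the Zfp386 side, and whether they belong to the V array was not determined.

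The kappa locus had 5hmC peaks in its constant end alone. All 6 Igk regions of 5hmC lay in the last 50 kb, between 70664977 and 70688616, and none lay in the variable part in any of the 6 libraries. The gap in 5hmC that spanned the whole V array ran from 67487131 to 70664976, over 3.18 Mb, and was the 67th longest of 206397 in the genome, where 331 gaps reached 1 Mb and the longest was 20.0 Mb. 5mC was present in that gap. The variable part of Igk held 18 regions of 5mC, 5 of them in every library, and none overlapped 5hmC. The 5mC regions nevertheless left the middle and far part of the array sparse, with a gap of 0.599 Mb from 69658896 to 70257995, the 90th longest of 218101. Outside the locus 5hmC was not scarce, since peaks covered 7.18 to 8.54% of the 500 kb before the window and 5.09 to 6.03% of the 500 kb after it.

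**Figure D2:**
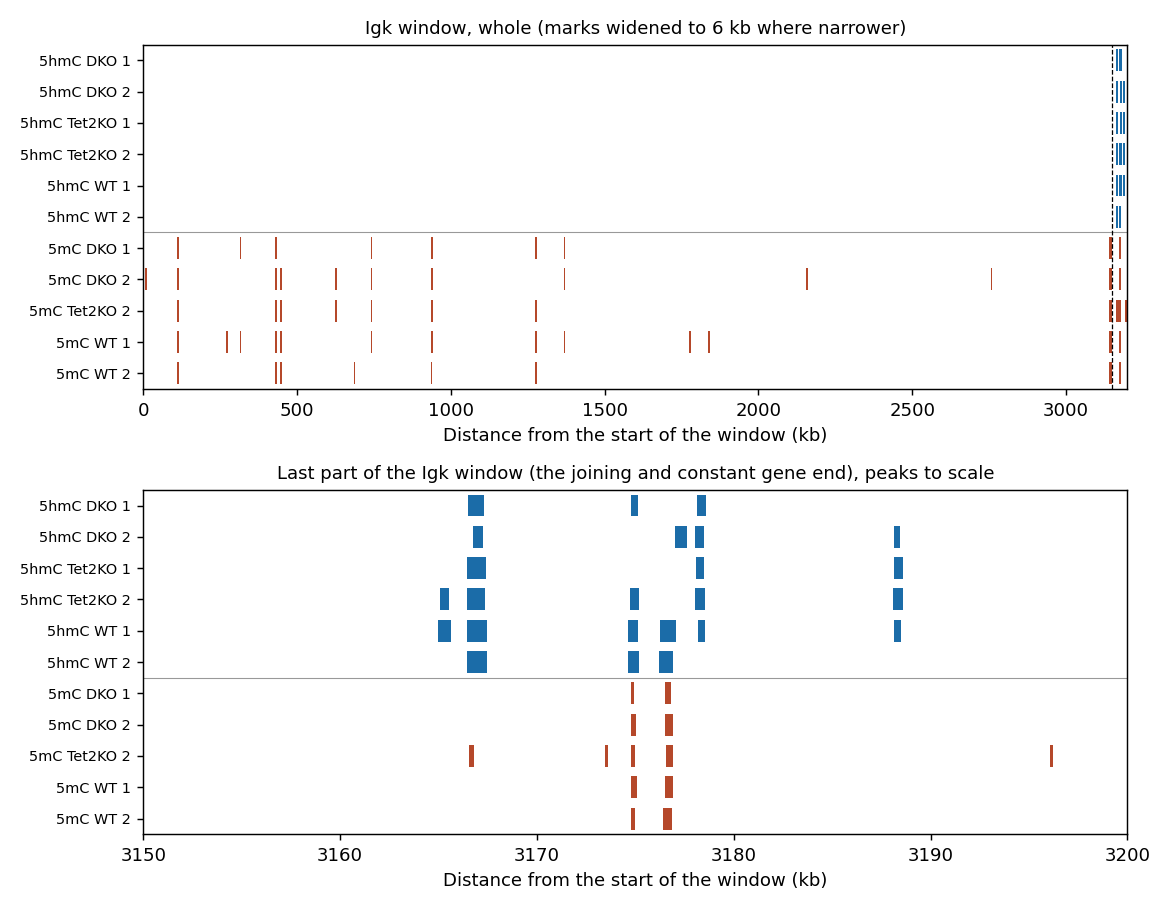
Peaks of each library along the Igk window, by distance from its start in kb; the upper panel shows all 3200 kb with marks widened to 6 kb where narrower, and the lower panel shows the last 50 kb to scale. 5hmC peaks (blue) are absent from the 3150 kb variable part in all 6 libraries, where each 5mC library (red) has 8 to 13 peaks.

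The last 100 kb bin of Igk was its densest, with a mean coverage of 2.34% for 5hmC and 1.30% for 5mC. At the J and C end, 1 region of 5hmC was present in every library, at 70666426 to 70667451 (1026 bp). Its peaks covered 801 and 505 bp in DKO libraries, 953 and 891 bp in Tet2KO libraries, and 1019 and 1024 bp in WT libraries. The DKO libraries had the narrowest peaks at this region and the WT libraries the widest. Over the whole lists, median widths were 705 and 623 bp in DKO, 633 and 598 bp in Tet2KO, and 728 and 681 bp in WT. The score of this region was 127 and 80.1 in DKO lists, 147 and 235 in Tet2KO lists, and 111 and 209 in WT lists. These scores are not compared between lists. 5mC was present in every library at 70674758 to 70675076 (319 bp) and at 70676410 to 70676905 (496 bp), and 5hmC regions overlapped both in part of the libraries. The widest 5mC regions of the variable part that were present in every library lay at its very end, at 70645570 to 70646018 (449 bp), and near its start, at 67613328 to 67613709 (382 bp).

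The lambda locus had no peak of either mark. The nearest 5hmC region before the window lay 46.5 kb away and the nearest after it 453 kb away, which made a gap of 0.750 Mb, the 425th longest of 206397. The nearest 5mC regions lay 32.9 kb before and 108 kb after the window, a gap of 0.391 Mb, the 254th longest of 218101. The 500 kb after the window, on the side of the olfactory receptor gene Olfr164, were themselves sparse, with 0.0852 to 0.233% covered by 5hmC peaks and 0.0458 to 0.123% by 5mC peaks. The 500 kb before it, on the side of Hira, which codes for a histone chaperone, had 3.39 to 4.96% covered by 5hmC peaks and 2.15 to 2.35% by 5mC peaks.

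The comparison of the marks asked whether the Ig loci were poor in both to the same degree. By this measure they were not: relative to its own genome-wide coverage, 5hmC was lower than 5mC over Igh and over Igk. The same order held for a typical stretch of the genome. For 5hmC, the median bin of 100 kb had a mean coverage of 0.1625%, against 3.73 to 4.23% of the chromosomes. For 5mC, it had 0.6526%, against 1.65 to 1.71% of the chromosomes. The order of the marks is therefore not particular to the Ig loci. Relative coverage of Igh was 0.152 ± 0.0151 for 5hmC (SD, n = 6) and 0.261 ± 0.0312 for 5mC (SD, n = 5), a difference of -0.109. Every 5hmC library, from 0.140 to 0.175, lay below every 5mC library, from 0.215 to 0.297. The two-sided exact permutation test over the 462 assignments of libraries to marks gave p = 0.00216, the smallest it allows, and an adjusted p of 0.00325 over the 6 windows and parts tested (Benjamini-Hochberg). Relative coverage of Igk was 0.0182 ± 0.00575 for 5hmC (SD, n = 6) and 0.0607 ± 0.0143 for 5mC (SD, n = 5), a difference of -0.0425 with the same exact p and adjusted p. The 5hmC libraries spanned 0.0117 to 0.0269 and the 5mC libraries 0.0463 to 0.0785, without overlap. Each mark was measured by its own assay and its own library kit, so the mark and the assay cannot be told apart, and each mark pools 3 genotypes.

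The difference between the marks was not alike at all ends. In the constant end of Igh, relative coverage was 0.929 ± 0.166 for 5hmC (SD, n = 6) and 1.62 ± 0.202 for 5mC (SD, n = 5). The difference was -0.69 without overlap (exact permutation p = 0.00216, adjusted p = 0.00325). The values for both marks rested on the first 100 kb, which may hold neighbouring genes. Mean 5mC coverage was 7.06% there and 1.92 and 0.591% in the next bins of 100 kb, against 1.65 to 1.71% of the chromosomes. For 5hmC it was 9.02% there and 1.54 and 2.47% in the next bins, against 3.73 to 4.23% of the chromosomes. In the variable part of Igh, relative coverage was 0.0448 ± 0.0142 for 5hmC and 0.0740 ± 0.0180 for 5mC (SD, n = 6 and 5), and the libraries of the marks overlapped (exact permutation p = 0.0130, adjusted p = 0.0156). In the variable part of Igk it was 0 in all 6 5hmC libraries and 0.0478 ± 0.0143 for 5mC (SD, n = 5; exact permutation p = 0.00216, adjusted p = 0.00325). In the constant end of Igk the order was the other way round and did not pass the test. There it was 1.16 ± 0.368 for 5hmC and 0.869 ± 0.273 for 5mC (SD, n = 6 and 5), a difference of 0.294 (exact permutation p = 0.173, adjusted p = 0.173).

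**Figure D3:**
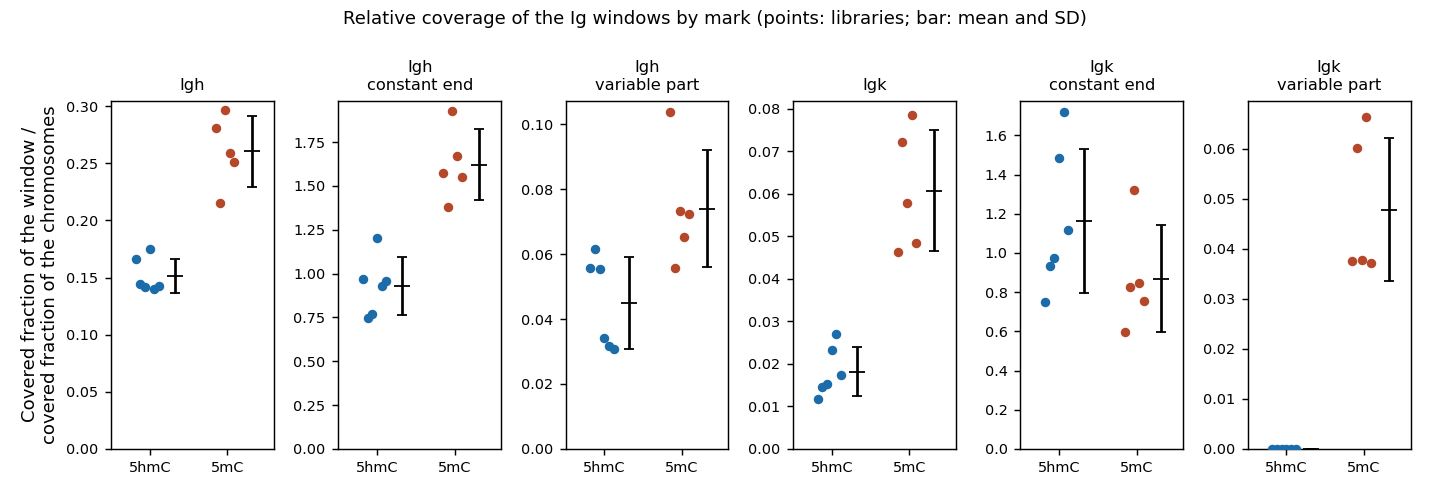
Relative coverage (covered share of the window divided by the covered share of the chromosomes) in each 5hmC library (blue, n = 6) and each 5mC library (red, n = 5), with the mean and SD as black bars and a scale of its own in each panel. 5hmC libraries lie below 5mC libraries without overlap in Igh, the Igh constant end, Igk and the Igk variable part, and overlap them in the other panels.

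The first 100 kb and the last 100 kb of the Igh window may hold neighbouring genes. Without them, relative coverage of Igh was 0.0555 ± 0.0159 for 5hmC and 0.112 ± 0.0222 for 5mC (SD, n = 6 and 5), with a difference of -0.0566 (exact permutation p = 0.00216). Both marks were lower than in the whole window, and 5hmC stayed below 5mC without overlap. In bins of 100 kb, 20 of 29 Igh bins (69.0%), 31 of 32 Igk bins (96.9%) and all 3 Igl bins had no 5hmC peak, against 12008 of 26400 bins in the genome (45.5%). For 5mC, 12 Igh bins (41.4%), 17 Igk bins (53.1%) and all 3 Igl bins had no peak, against 4569 bins in the genome (17.3%).

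Fewer of the Ig regions of 5hmC than of all 5hmC regions were found in every library, while the shares for 5mC were close; these shares are given without a test. A peak in every library was seen at 10 of the 52 5hmC Ig regions (19.2%), against 29.9% in the genome, and at 26 of the 85 5mC Ig regions (30.6%), against 32.3% in the genome. A peak in a single library was seen at 14 Ig regions of 5hmC (26.9%, against 25.8% in the genome) and at 29 of 5mC (34.1%, against 30.4%). The Ig regions were a little narrower, with median widths of 648.5 bp for 5hmC, against 721 bp in the genome, and 298 bp for 5mC, against 341 bp. A 5mC region overlapped 18 of the Ig 5hmC regions (34.6%, against 29.3% in the genome), and a 5hmC region overlapped 18 of the Ig 5mC regions (21.2%, against 32.4%).

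The genotype comparisons asked whether loss of Tet2, or of Tet1 and Tet2, went with another amount of either mark in the Ig loci. No difference in covered share passed a test. With 2 libraries against 2, the smallest p the exact permutation test allows is 0.333, so none could. 5hmC peaks covered 0.691 and 0.577% of Igh in DKO libraries, 0.544 and 0.654% in Tet2KO libraries, and 0.591 and 0.589% in WT libraries. In this unscaled share both knockouts thus spread around the WT value. Relative coverage of Igh was 0.166 and 0.144 in DKO libraries, 0.142 and 0.175 in Tet2KO libraries, and 0.140 and 0.143 in WT libraries. On that scale both DKO libraries lay above both WT libraries, while Tet2KO and WT libraries overlapped, and this was not tested. The differences that follow are in unscaled covered share. DKO minus WT was 0.0439 percentage points (two-sided exact permutation p = 1), Tet2KO minus WT 0.00928 points (exact permutation p = 1) and DKO minus Tet2KO 0.0347 points (exact permutation p = 0.667). With the 4 knockout libraries as 1 group, the difference from WT was 0.0266 points (exact permutation p = 0.667, with a smallest possible p of 0.0667).

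In Igk, 5hmC peaks covered 0.0488 and 0.0584% of the window in DKO libraries, 0.0584 and 0.0865% in Tet2KO libraries, and 0.114 and 0.0721% in WT libraries. Both DKO libraries lay below both WT libraries, while the Tet2KO libraries met the range of the DKO libraries and overlapped that of the WT libraries. DKO minus WT was -0.0393 percentage points (exact permutation p = 0.333, adjusted p = 0.889 over 8 comparisons of 5hmC), and both knockouts together minus WT was -0.0299 points (exact permutation p = 0.133, adjusted p = 0.889). Without WT replicate 1, which had the most, these differences were -0.0185 and -0.00909 points. As all Igk 5hmC lay in the constant end, the same difference there amounted to 3.43% in DKO libraries and 5.95% in WT libraries on average, that is 3 and 4 peaks in DKO libraries, 3 and 5 in Tet2KO libraries, and 6 and 3 in WT libraries.

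The variable part of Igh showed the opposite order. 5hmC peaks covered 0.233 and 0.246% of it in DKO libraries, 0.213 and 0.127% in Tet2KO libraries, and 0.133 and 0.127% in WT libraries. The DKO libraries lay above all others, and the groups DKO and WT did not overlap. DKO minus WT was 0.109 percentage points (exact permutation p = 0.333, adjusted p = 1 over 16 comparisons) and DKO minus Tet2KO 0.0694 points (exact permutation p = 0.333, adjusted p = 1). The same part was covered by 5mC peaks to 0.177 and 0.0918% in DKO libraries, 0.125% in the Tet2KO library, and 0.111 and 0.121% in WT libraries, with the DKO values on either side of the others. The variable part includes the last 100 kb of the window, which may hold neighbouring genes. There 5hmC peaks covered 2.83 and 3.15% in DKO libraries, 2.86 and 2.34% in Tet2KO libraries, and 2.15 and 2.36% in WT libraries. Genotype comparisons of the parts were not rerun under the alternatives.

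5mC did not separate the genotypes in whole windows either. It covered 0.480 and 0.355% of Igh in DKO libraries, 0.507% in the Tet2KO library, and 0.439 and 0.419% in WT libraries, and DKO minus WT was -0.0115 percentage points (exact permutation p = 1). It covered 0.0792 and 0.119% of Igk in DKO libraries, 0.0987% in the Tet2KO library, and 0.133 and 0.0810% in WT libraries, and DKO minus WT was -0.00797 points (exact permutation p = 0.667, adjusted p = 1). With 1 library, Tet2KO was not tested for 5mC.

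**Figure D4:**
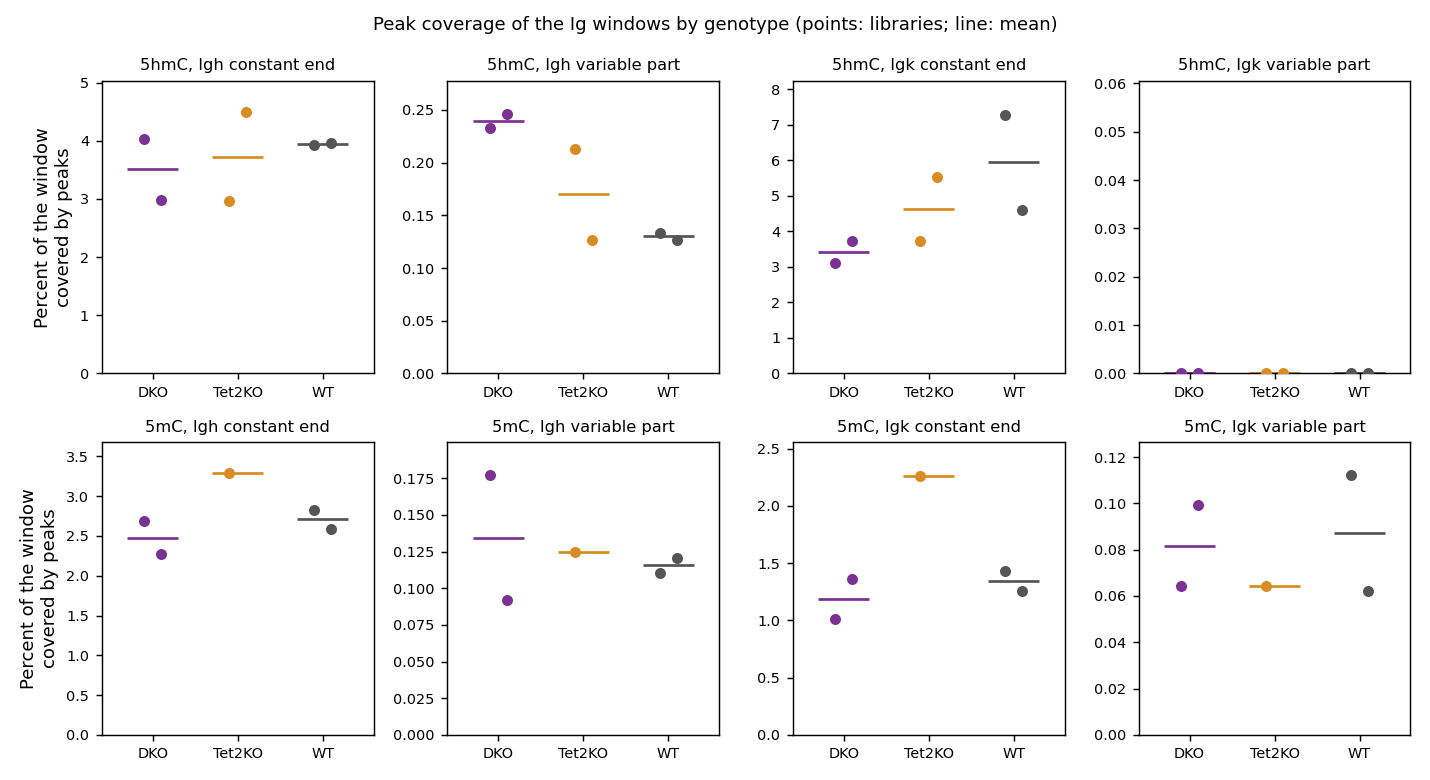
Percent of each part of the Igh and Igk windows covered by peaks, for 5hmC (upper row) and 5mC (lower row), in DKO, Tet2KO and WT libraries; points are libraries, lines are means, and each panel has its own scale from 0. DKO points lie above WT points for 5hmC in the Igh variable part and below them in the Igk constant end, with 2 libraries in each group.

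The fit across the genome gave no call in the Ig loci. In bins of 100 kb, limma on the arcsine square root of the covered share called 0 of 13467 bins in each 5hmC comparison and 0 of 20385 bins in the 5mC comparison at an adjusted p under 0.05 (percent called 0). Unadjusted p under 0.05 was reached by 12.9% of 5hmC bins for Tet2KO against WT, 8.25% for DKO against WT and 8.46% for DKO against Tet2KO, and by 4.61% of 5mC bins for DKO against WT. Of the 7 Ig bins tested for 5hmC, 0, 1 and 1 did so in the same order of comparisons, and none of the 21 tested for 5mC did. The 1 bin was the same in both comparisons with DKO. It spanned chromosome 12 from 116900001 to 117000000, with a mean 5hmC coverage of 0.539% in DKO libraries, 0% in Tet2KO libraries and 0% in WT libraries (limma adjusted p = 0.541 for DKO against WT and 0.534 for DKO against Tet2KO). The DKO value came from a single region, at 116922314, whose peaks had scores of 68.9 and 51.3, close to the lowest score of 50.

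The other Ig bins with the smallest p in each direction were not called either. In the first bin of the Igh window, which may hold neighbouring genes, mean 5hmC coverage was 8.25% in DKO libraries, 8.32% in Tet2KO libraries and 10.5% in WT libraries (limma adjusted p = 0.664 for DKO against WT and 0.475 for Tet2KO against WT). In the third bin, from 114600001, it was 1.98% in DKO libraries, 3.23% in Tet2KO libraries and 2.2% in WT libraries (limma adjusted p = 0.734 for DKO against Tet2KO and 0.681 for Tet2KO against WT). For 5mC, the Igk bin from 68700001 averaged 0.12% in DKO libraries and 0.254% in WT libraries, and the Igh bin from 116800001 averaged 1.50% in DKO libraries and 0.875% in WT libraries (limma adjusted p = 0.943 for both).

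Single regions were also compared by presence. A region was counted as lost where both libraries of the first group lacked a peak and both of the second had one, and as gained in the opposite case. For DKO against WT, 3 of the 52 Ig regions of 5hmC were lost and 4 gained, against 3.3% and 4.18% of all 5hmC regions. For Tet2KO against WT, 1 was lost and 3 gained, against 3.27% and 3.42%. For DKO against Tet2KO, 2 were lost and 2 gained, against 2.21% and 2.81%. For 5mC and DKO against WT, 0 of 85 were lost and 2 gained, against 2.37% and 2.53%. These counts carry no test, and they stand only a few regions from what the genome-wide shares would give. Comparisons with the same control share its libraries.

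The Igh constant end, which held 33 of the 52 Ig regions of 5hmC, also held most of those lost or gained. At 114659942 to 114661421 (1480 bp), peaks covered 0 and 0 bp in DKO libraries, 645 and 1289 bp in Tet2KO libraries, and 1015 and 1275 bp in WT libraries. The adjacent region from 114661746 to 114662590 (845 bp) had 697 and 371 bp in DKO libraries, 734 and 634 bp in Tet2KO libraries, and 0 and 0 bp in WT libraries. Peaks of this pair thus stood at the earlier position in WT libraries, at the later one in DKO libraries and at both in Tet2KO libraries. The highest scores at the earlier position were 105 and 100 in Tet2KO lists and 52.1 and 123 in WT lists. At the later position they were 58.8 and 56.2 in DKO lists and 106 and 91.5 in Tet2KO lists. Both DKO scores and 1 of the WT scores were close to the lowest score in the lists. With a score of at least 100, DKO against WT lost 0 Ig regions of 5hmC and gained 3. The region at 114663508 beyond the pair was present in all 6 libraries. With peaks up to 500 bp apart joined, the pair fell into 1 region.

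Other 5hmC regions of the constant end were also lost or gained in a comparison. At 114460830 to 114461471 (642 bp), peaks covered 567 and 437 bp in DKO libraries, 601 and 485 bp in Tet2KO libraries, and 0 and 0 bp in WT libraries. At 114448673 to 114449268 (596 bp), they covered 0 and 0 bp in DKO libraries, 410 and 0 bp in Tet2KO libraries, and 511 and 529 bp in WT libraries. The score ranged from 50.5 to 105 at the first of these and from 51.4 to 63.9 at the second, against a lowest score of 50 in the lists. Next to the first lay a 5hmC region from 114459399 to 114460424, with peaks in 1 of the DKO libraries, both Tet2KO libraries and both WT libraries. At 114422690 to 114424132 (1443 bp), just before the site that both marks shared in every library at 114425800, peaks covered 1443 and 1280 bp in DKO libraries, 0 and 0 bp in Tet2KO libraries, and 833 and 0 bp in WT libraries. The region at 114399781 to 114400609 lies across the edge of the window and was absent from both DKO libraries and present in both Tet2KO and both WT libraries. At 114641408 to 114641840 (433 bp), peaks covered 372 and 0 bp in DKO libraries, 323 and 433 bp in Tet2KO libraries, and 0 and 0 bp in WT libraries.

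In the Igh variable part, the 5hmC regions counted as gained in DKO against WT lay near the far V end. At 116854813 to 116855652 (840 bp), peaks covered 765 and 648 bp in DKO libraries, 790 and 0 bp in Tet2KO libraries, and 0 and 0 bp in WT libraries. Scores there were 70.3 and 141 in DKO lists and 216 in 1 Tet2KO list. At 116922314 to 116922943 (630 bp), peaks covered 488 and 590 bp in DKO libraries, and 0 bp in both Tet2KO and both WT libraries. Scores at this second region were 68.9 and 51.3, against a lowest score of 50. The region at 116854813 lies just beyond the pair of 5hmC and 5mC regions present in every library. The 2 regions of 5mC counted as gained in DKO against WT lay in the same stretch. At 116832095 to 116832252 (158 bp), 5mC peaks covered 140 and 158 bp in DKO libraries, 126 bp in the Tet2KO library, and 0 and 0 bp in WT libraries. At 116868937 to 116869232 (296 bp), they covered 234 and 248 bp in DKO libraries, 211 bp in the Tet2KO library, and 0 and 0 bp in WT libraries.

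In Igk, the region lost in Tet2KO lay at 70676180 to 70677597 (1418 bp). Its peaks covered 0 and 569 bp in DKO libraries, 0 and 0 bp in Tet2KO libraries, and 792 and 734 bp in WT libraries. The WT peaks had scores of 53.0 and 52.2, close to the lowest score of 50 in the lists, and the DKO peak had 110. 5mC at the same place, from 70676410 to 70676905, was present in all 5 libraries, with 314 and 393 bp in DKO, 315 bp in Tet2KO, and 403 and 455 bp in WT.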

How the data were processed

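The authors deposited 1 peak list per library for 11 libraries, without pooling replicates. Each peak has a chromosome, start, end and the authors' score, in the form MACS gives a p-value on a log10 scale, with a lowest value of 50 (1e-05). MACS 1.4.2, Bowtie 0.12.9, CASAVA 1.4, TopHat2 2.0.8, Cuffdiff 2.2.1 and the build mm9 are named in the submitters' processing notes, without their roles. For a control library, duplicate removal and read depth, the settings were not given in the sources used here, and depth can change the number and width of peaks. The 17 RNA-seq samples were not analysed here.

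Peaks sharing at least 1 bp were merged per mark. Covered shares were compared by two-sided exact permutation tests over libraries, and bins of 100 kb with a peak in at least 2 libraries by limma 3.58.1 in R 4.3.3, fitted on the whole genome with Benjamini-Hochberg adjustment. Other steps used Python 3.11.15, numpy 2.4.6 and pandas 2.3.3, and the steps were tested on simulated data. The regions named were the 3 widest present in every library of a mark and locus, the 3 widest lost and gained in each comparison, and the bin with the smallest p in each direction. Other regions named as present in every library were chosen after their values were seen. The windows and lists were chosen with earlier results of these data known, and the limits of the constant ends were set from the order of gene segments, not from an mm9 annotation. The title of the 5mC Tet2KO library gives it the number 2 and the name of its list gives 1; the title was followed. Alternatives were a score of at least 100, equal numbers of top peaks, at least a 0.5 share of a region covered, joining within 500 bp, other bins and filters, a replicate block and leaving out each library. Peaks per Mb and the Igh window without 100 kb at each end were added after the data were seen.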

Additional observations from a re-analysis of the deposited data

Results flagged for a closer look

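The single 5mC library of Tet2KO, which no genotype test could use, had peaks over 0.507% of Igh. The DKO libraries had 0.480 and 0.355% and the WT libraries 0.439 and 0.419%, so it was above all 4. With 1 library this difference was not tested. Single libraries far from the rest of their mark were looked for in 11 sets of coverage values of 5 or 6 libraries each, and none was found.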

How the results depend on the processing

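The lower relative coverage of 5hmC in Igh and Igk kept its direction and its side of the threshold under all alternatives run, with a difference between -0.120 and -0.100 in Igh and between -0.0461 and -0.0380 in Igk when each library was left out. Genotype differences in covered share (percentage points) were not stable. With a score of at least 100, the 5hmC difference in Igh for DKO minus Tet2KO was -0.0117 and the 5mC difference for DKO minus WT was 0.0128. With equal numbers of top peaks, the 5hmC differences were -0.00879 in Igh for Tet2KO minus WT and 0.00420 in Igk for DKO minus Tet2KO. Leaving out each library gave, for 5hmC in Igh, -0.0223 to 0.0916 for DKO minus Tet2KO, -0.0130 to 0.101 for DKO minus WT and -0.0455 to 0.0641 for Tet2KO minus WT. It gave, for 5hmC in Igk, -0.0413 to 0.000328 for Tet2KO minus WT, -0.0601 to -0.0185 for DKO minus WT and -0.0507 to -0.00909 for both knockouts minus WT, and -0.0742 to 0.0511 in Igh and -0.0340 to 0.0180 in Igk for 5mC, DKO minus WT. The cause was not tested.

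Counts of lost and gained regions rested on few regions. With a score of at least 100, Tet2KO against WT lost 0 and gained 1, DKO against WT lost 0, DKO against Tet2KO lost 1 and gained 1, and 5mC lost 1 and gained 4. With equal numbers of top peaks, Tet2KO against WT lost 2, DKO against WT gained 1, DKO against Tet2KO gained 1, and 5mC lost 1. With a 0.5 share of the region covered, Tet2KO against WT lost 2, DKO against WT lost 5, DKO against Tet2KO lost 1, and 5mC lost 1. With peaks up to 500 bp apart joined, Tet2KO against WT lost 0 and gained 1, DKO against WT gained 2, and DKO against Tet2KO lost 1. Without 1 library, which leaves fewer libraries to satisfy, 5hmC regions gained numbered 3 to 9 for Tet2KO against WT, 5 to 9 for DKO against WT and 3 to 6 for DKO against Tet2KO. Regions lost numbered 2 to 6 for Tet2KO against WT, 5 to 7 for DKO against WT and 4 to 6 for DKO against Tet2KO, and for 5mC 2 to 11 were gained and 2 to 7 lost.

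No Ig bin was called by limma under any alternative; where 1 library was left in a group, the fit assumes that it varies like the others. Same-numbered libraries did not deviate together, with correlations over bins of 0.0375, 0.0414 and -0.0137 between 5hmC genotypes and -0.0565 for 5mC. The replicate block changed no call: 0 Ig bins were called, and the paired differences were the same, such as -0.0393 for 5hmC in Igk for DKO minus WT, with a smallest possible exact sign-flip p of 0.5. Unknown read depth and 2 libraries a group limit what can be seen.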
